A study of Mus musculus x Rattus norvegicus with 2 samples.

Results

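Mouse alveolar type 2 (AT2) cells were taken from a pair of single-cell RNA libraries of chimeric lung. They were chosen by measured RNA, above all that of Sftpc, which encodes surfactant protein C. A barcode was kept if it had at least 500 genes and 2000 unique molecular identifiers (UMIs, each counted as 1 RNA molecule), at most 20% of UMIs from mitochondrial genes and at least 90% of UMIs from mouse genes. Among these mouse barcodes, an AT2 cell had Sftpc at 30000 or more counts per 1000000 mouse UMIs (CPM), Ager, a gene of alveolar type 1 (AT1) cells, under 1000 CPM, and at most 2 UMIs of the endothelial genes Cdh5 and Pecam1. The rule kept 817 cells of the 22047 barcodes deposited. The mutant library gave 536 of its 8091 mouse barcodes, or 6.62% (95% Clopper-Pearson interval 6.09 to 7.19). The control library gave 281 of 6284, or 4.47% (3.97 to 5.01). With the Sftpc limit lowered to 10000 CPM, the rule kept 552 mutant and 429 control cells of the same barcodes. With a higher limit it kept 524 mutant and 162 control cells. The size of the gap between the shares thus depended on the Sftpc limit.

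Both libraries were made with the 10x 3' v3 chemistry from whole lungs of mouse-rat embryos at E20.5 (embryonic day). The mutant library was labelled as mouse lung from an Nkx2-1-/- rat host, and the control library as mouse-rat chimeric lung from a wild-type rat host. The strain label of both was C57BL/6, SD, and the labels gave no genotype for the mouse cells beyond the strain and no number of embryos. With 1 library per group no difference had a replicate check, no test was made, and host genotype, embryo, dissociation and sequencing run cannot be told apart.

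AT2 cells are the cuboidal cells of the alveolus that make surfactant, the film of phospholipid and protein that keeps air spaces open at birth. They store it in lamellar bodies, organelles of lysosomal kind into which lipid is pumped and in which the surfactant proteins are cut to size. In late gestation distal tip progenitors leave the cell cycle and turn on this secretory and lipid programme under the transcription factor NKX2-1, while their neighbours flatten into AT1 cells. Lysozyme and other defence proteins are late products of the same cells in mouse.

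The host and the depth of the libraries were looked at first. Rat Nkx2-1 is the deleted gene of the mutant host and had 1 UMI among 1856112 rat UMIs of the mutant library and 5103 among 18910529 of the control library. Rat Sftpc had 8 UMIs in the mutant and 56971 in the control library. The part of the deletion and that of few rat epithelial cells in the Nkx2-1 count cannot be told apart. Only 78 barcodes of the mutant library and 718 of the control library passed the limits as rat cells, and whether the counted 3' end lies inside the deleted part was not tested. The libraries shared 47 barcodes, and none of them was a gated AT2 cell. Gated cells had a median of 19826 UMIs (quartiles 16443.5 and 23404.75) in the mutant library and 24800 (11153 and 64753) in the control library. Cells over 40000 UMIs numbered 3 in the mutant library, with 1.27% of the gated mouse UMIs, and 105 in the control library, with 80.3%. Scrublet, a doublet caller, gave a score of 0.2 or more to 1 of these 3 and 1 of these 105 cells. The median rat share of UMIs was 0.436% in mutant and 0.386% in control AT2 cells.

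The label was checked against the AT2 markers that the rule did not use. Sftpb, the surfactant protein B gene, had a UMI in 100% of mutant and 97.5% of control gated cells. After each cell was thinned to 2000 UMIs, the share was 99.8% in mutant and 82.2% in control cells, beside 5.22% and 3.47% in mutant and control endothelial cells, which should lack it and so show free RNA. Lamp3, a lamellar body membrane protein, was found after thinning in 87.5% of mutant and 20.3% of control AT2 cells, beside 0.730% of mutant and 0.434% of control endothelial cells. Slc34a2, the phosphate transporter of AT2 cells, was found in 97.4% of mutant and 30.2% of control AT2 cells, beside 0.939% and 0% of mutant and control endothelial cells. All 3 markers stood above the endothelial share in both libraries, with Lamp3 and Slc34a2 in a minority of the thinned control cells. Intervals here and below are 95%, exact Poisson for sums and Clopper-Pearson for shares, and they cover counting error only.

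More control than mutant cells lay close to the Sftpc limit. Sftpc, the gate gene, stood at 139086 CPM in the summed mutant cells and 57068 CPM in the control cells, with cell medians of 141300 in mutant and 54204 in control cells. These values follow from the rule and are given as a description. Of cells that passed the other limits, 4 mutant and 25 control cells lay just outside the limit, at 25000 to 30000 CPM, and 4 mutant and 38 control cells lay just inside it, at 30000 to 35000. For Ager, 9 mutant and 4 control cells lay at 1000 to 1100 CPM and were left out, while 16 mutant and 6 control cells lay at 900 to 1000 and were kept. For Cdh5 and Pecam1, 5 mutant cells and no control cell were left out at 3 UMIs, and 27 mutant and 11 control cells were kept at 2. Endothelial cells gave the level of free Sftpc RNA, a median of 274 CPM in the mutant and 211 in the control library. Sftpc lies on mm10 chr14:70520949-70524081, minus strand.

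**Figure D1:**
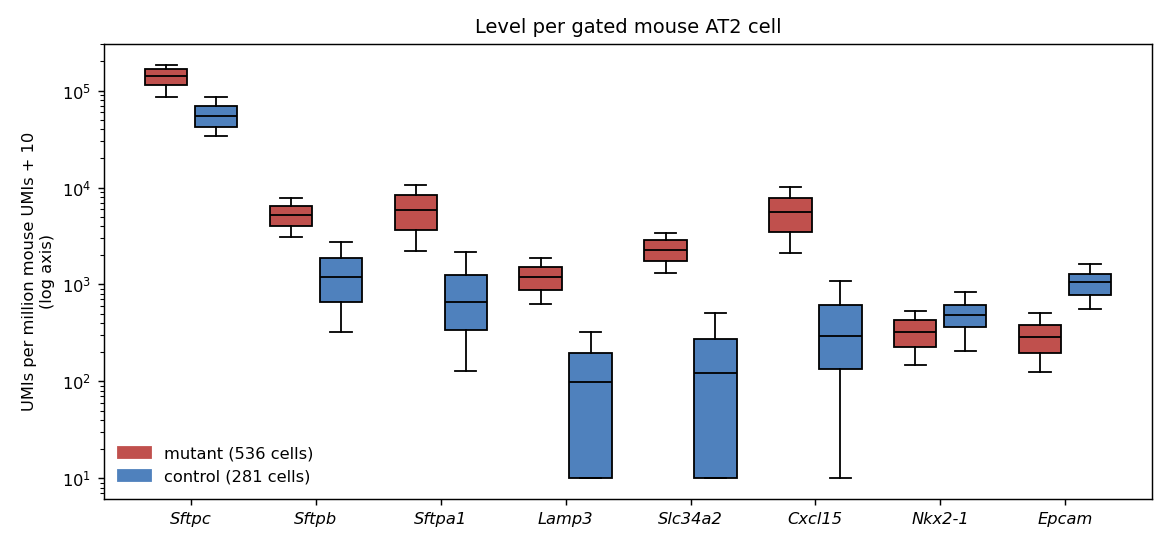
Level per gated AT2 cell of 8 genes, in CPM plus 10 on a log axis, for 536 mutant cells (red, left) and 281 control cells (blue, right). Boxes span the quartiles with the median as a line, and whiskers run from the 10th to the 90th percentile. Lamp3, Slc34a2 and Cxcl15 boxes do not overlap between the libraries, while those of Nkx2-1 do and stand lower in mutant cells.

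Expression was compared over 9374 mouse genes that reached 10 CPM in at least 1 library. The log2 difference of mutant over control was taken after adding 10 CPM to both, which understates the difference of low genes, and a gene was called when it differed at least 2-fold on that scale. In mutant AT2 cells 1234 genes (13.2%) were called higher and 1612 (17.2%) lower, and the median over all genes was -0.25. These differences followed the intron length of the gene. Genes with up to 2 kb of intron had a median log2 difference of -0.66, and genes with over 200 kb had a median of 1.30, with 63.0% of them called higher and 1.42% lower. The matrices came from Cell Ranger 7.0.1 for the mutant and 6.0.1 for the control library per the file headers. Version 7 counts intronic reads by default, and the setting used for either file is not given in the sources used here. A relative difference was therefore also computed, from which the median difference of genes with similar intron length had been subtracted. On that scale, over 9371 genes with a known intron length, 1067 (11.4%) were called higher and 872 (9.31%) lower. The higher share of all called genes was thus 43.4% on the plain scale and 55.0% on the relative scale. This share also moved with the total used for scaling. Over mouse UMIs other than those of Sftpc, 1455 genes were called higher and 1425 lower, a higher share of 50.5%. With TMM scaling in edgeR the counts were 1413 and 1286, a higher share of 52.4%.

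**Figure D2:**
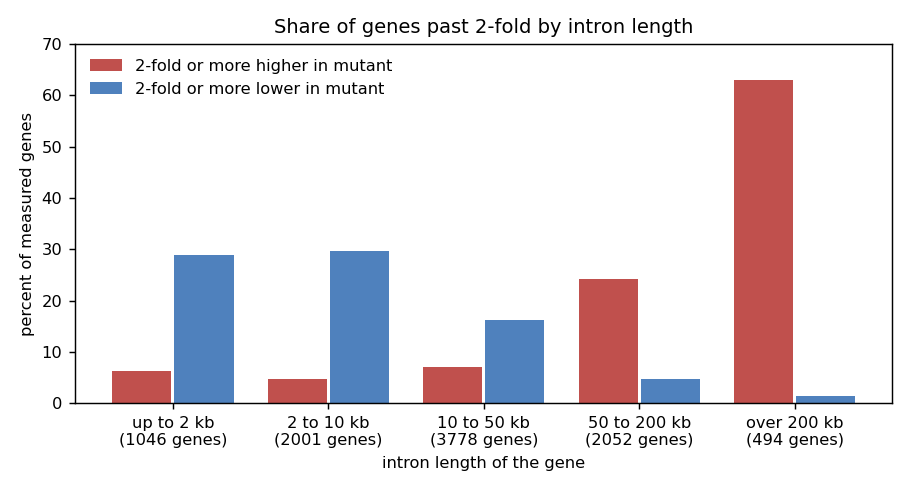
Percent of measured genes called at least 2-fold higher (red) or lower (blue) in mutant than in control AT2 cells, in 5 classes of intron length, with the number of genes under each class. The share called higher is 6.31% in genes of up to 2 kb of intron and 63.0% in genes of over 200 kb, and the share called lower runs the other way.

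Surfactant protein genes were higher in mutant AT2 cells. The rule did not use 3 of the 4 genes, and all 3 were called higher: Sftpb (log2 difference 1.92), Sftpa1 (2.64) and Sftpd (5.11). Their relative differences were 2.56, 3.28 and 5.68. Sftpc is the gate gene, so its difference follows from the rule and is a description. With Sftpc included, the median of the 4 was 2.28 and the relative median 2.92. The 4 genes together made up 151421 CPM in mutant and 59446 CPM in control cells, most of it Sftpc. Sftpb, on mm10 chr6:72304610-72314371, plus strand, encodes the protein that spreads the lipid film. It stood at 5186 CPM (5143 to 5230) in mutant and 1366 CPM (1346 to 1386) in control cells. The cell quartiles of Sftpb were 3964 and 6472 in mutant cells and 642 and 1876 in control cells, so the middle ranges did not overlap.

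The hydrophilic surfactant proteins, collectins that bind microbes, stood further apart. Sftpa1 was at 6233 CPM in mutant and 995 CPM in control cells, a log2 difference of 2.64. Sftpd was at 916 CPM (898 to 934) in mutant and 16.9 CPM (14.7 to 19.2) in control cells, a log2 difference of 5.11. A UMI of Sftpd was found after thinning in 67.0% of mutant and 2.85% of control AT2 cells, beside 0.626% of mutant and 0% of control endothelial cells. Of the 3 surfactant genes outside the rule, Sftpb thus differed least and Sftpd most, an order that was not tested.

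Of 12 measured genes listed under lamellar bodies and surfactant processing, 6 were called higher and 1 lower, beside 13.2% and 17.2% of all genes. The median was 1.07. On the relative scale 10 were called higher and 1 lower, beside 11.4% and 9.31%, with a median of 1.37. The list is broad. Its relative calls higher include Muc1 (1.40), Slc6a14 (1.04) and Dlk1 (1.24), which is also counted with the imprinted genes, and Lmcd1 (-1.09) was the relative call lower. Slc34a2 stood at 2292 CPM in mutant and 168 CPM in control cells (3.69), and Lamp3 at 1201 CPM in mutant and 122 CPM in control cells (3.20). Abca3, the pump that loads phospholipid into lamellar bodies, was at 622 CPM in mutant and 206 CPM in control cells (1.55). Lpcat1, which remodels phosphatidylcholine, was at 1041 CPM in mutant and 404 CPM in control cells (1.34). Napsa, a protease that cuts pro-surfactant protein B, was at 1684 CPM in mutant and 581 CPM in control cells (1.52). Ctsh, another of these proteases, differed by less than 2-fold, at 2019 CPM in mutant and 1369 CPM in control cells. Pgc, the pepsinogen C gene, was the member called lower, at 2.85 CPM in mutant and 30.6 CPM in control cells, and its relative difference was -0.98, inside the 2-fold limit.

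Within each library, cells with more Sftpb tended to have more Lamp3. Spearman's rho over cells was 0.335 in 536 mutant cells and 0.613 in 281 control cells. The cells of a library share its preparation and differ in depth, and these are descriptions of cells, not of embryos.

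Defence and secreted genes of late AT2 cells held many of the largest differences. The list was chosen with earlier results of these data known, so its lead is a description. Of 13 measured members 10 were called higher and none lower, beside 13.2% and 17.2% of all genes. The median was 4.32 and the relative median 4.98. By the ranking over genes of at least 100 CPM, the 10 genes furthest above the control were Lyz2, Lyz1, Scd1, Chil1, S100g, Hc, Cmss1, Pde4d, Nupr1 and Retnla. Among genes with at most 10 kb of intron the ranking added Cbr2, Lcn2 and Cxcl15.

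The 2 lysozyme genes led the ranking and are near-identical neighbours on the minus strand of mm10 chromosome 10. Lyz1 lies at chr10:117287797-117292868 and Lyz2 at chr10:117277331-117282321. Both encode enzymes that cut bacterial cell walls, and in adult mice Lyz1 is known from Paneth cells of the gut and Lyz2 from macrophages and AT2 cells. Their coding sequences were identical at 422 of 444 bases, and their 3' untranslated regions, from which this chemistry reads, at 759 of 788 aligned bases (96.3%), so reads can be split between the copies uncertainly. The first 120 coding bases are shown from GENCODE vM21 transcripts to let the copies be compared, with the 11 bases that differ in capitals.
Lyz1: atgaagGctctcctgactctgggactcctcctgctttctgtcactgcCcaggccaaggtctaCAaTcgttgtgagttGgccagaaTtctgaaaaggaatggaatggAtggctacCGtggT
Lyz2: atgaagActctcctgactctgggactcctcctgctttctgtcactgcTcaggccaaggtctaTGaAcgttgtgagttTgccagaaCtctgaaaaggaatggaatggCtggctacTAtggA

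Lyz1 stood at 4104 CPM (4066 to 4143) in mutant and 12.5 CPM (10.7 to 14.6) in control AT2 cells, a log2 difference of 7.51. Lyz2 stood at 4231 CPM (4192 to 4270) in mutant and 4.25 CPM (3.22 to 5.51) in control cells, a log2 difference of 8.22. After thinning, Lyz1 was found in 46.5% of mutant and 1.42% of control AT2 cells, beside 2.56% of mutant and 0% of control endothelial cells. Lyz2 was found in 50.4% of mutant and 1.78% of control AT2 cells, beside 2.87% of mutant and 0.651% of control endothelial cells. The mutant AT2 shares of Lyz1 and Lyz2 thus lay far above the endothelial shares, and the control AT2 shares were small.

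Within the mutant library the lysozymes were the most uneven genes from cell to cell. Over 1192 genes ranked, the SD of the log2 level over cells was 2.89 for Lyz2, 2.87 for Lyz1 and 2.13 for Retnla, the 3 highest. Lyz1 had a median of 150 and an upper quartile of 4183 CPM, and Lyz2 a median of 198 and an upper quartile of 6457. At a limit of 1000 CPM, 120 mutant cells (22.4%) passed for Lyz1 alone, 137 (25.6%) for Lyz2 alone, 75 (14.0%) for both and 204 (38.1%) for neither. In control cells 1 of 281 passed for Lyz1 and none for Lyz2, which allows a share of up to 1.30% by the Clopper-Pearson interval. The share with both in mutant cells was close to the product of the single shares, 14.4%, and Spearman's rho between Lyz1 and Lyz2 was 0.0334 over 536 cells. Leaving out cells with a doublet score of 0.2 or more, 71 of 500 cells (14.2%) passed for both, beside a product of 14.9%.

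The classes are ranges of a continuous level and not cell types. At a limit of 300 CPM 105 mutant cells passed for both lysozymes and 151 for neither, and at 3000 CPM 49 passed for both and 260 for neither. Cells of 1 lysozyme held little of the other. Cells past the 1000 limit for Lyz1 alone had 11551 CPM of Lyz1 and 116 CPM of Lyz2, and cells past it for Lyz2 alone had 101 CPM of Lyz1 and 10907 CPM of Lyz2. That separation follows in part from the limit itself, and cells were sorted on the values given.

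The 4 lysozyme classes were alike in some AT2 genes and not in others. Sftpb was between 4991 and 5390 CPM in the 4 classes, and Slc34a2 between 2121 and 2486 CPM. Cxcl15 was lower in cells with neither lysozyme, at 4821 CPM, than in the other classes, at 6210 to 6900 CPM. Chil1 had a cell median of 841 CPM in cells with both lysozymes, 731 CPM with Lyz1 alone, 775 CPM with Lyz2 alone and 385 CPM with neither. Retnla had a cell median of 3316 CPM in cells with both lysozymes, 1819 with Lyz1 alone, 1802 with Lyz2 alone and 697 with neither. Genes of macrophages, which also express Lyz2, were at or near 0. C1qa had no UMI in any of the 4 classes, Csf1r was at most at 2.17 CPM and Ptprc at most at 4.34 CPM, both in the Lyz2 class, where Tyrobp stood at 10.5 CPM. The median depth was 20765 UMIs in cells with both, 20310.5 with Lyz1 alone, 20440 with Lyz2 alone and 18792 with neither, and its part in these differences was not tested.

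**Figure D3:**
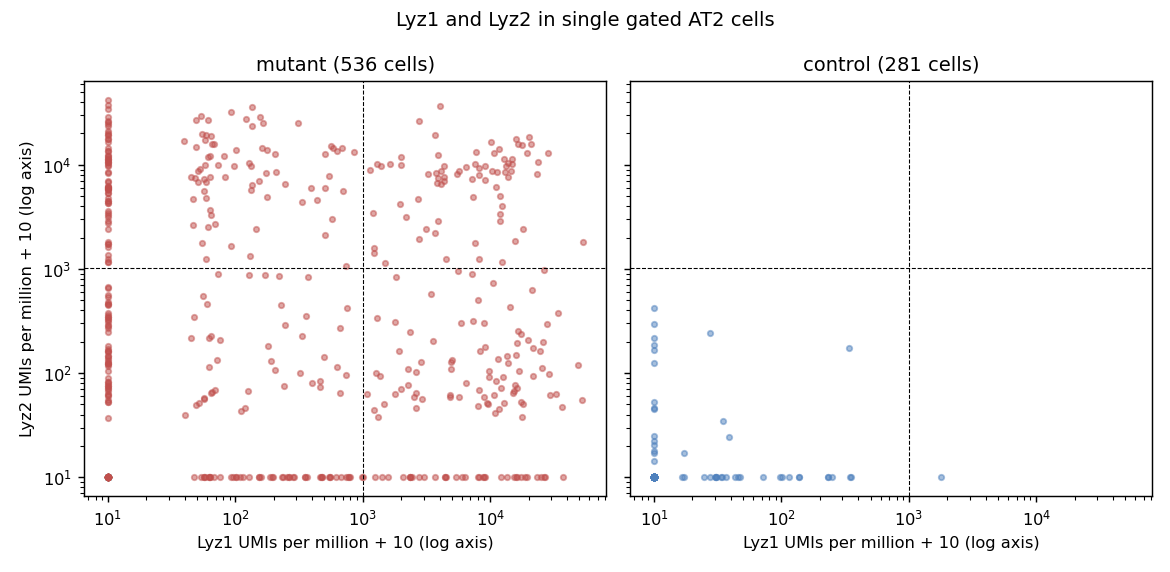
Lyz1 (x axis) against Lyz2 (y axis) in single gated AT2 cells, both in CPM plus 10 on log axes, for 536 mutant cells (left) and 281 control cells (right). Dashed lines mark 1000 CPM, past which 75 mutant cells lie for both genes, and cells without a UMI sit on the axes at 10.

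Of the other leading defence and secreted genes, Cxcl15 and Chil1 were found after thinning in more of the mutant cells than either lysozyme. Cxcl15, a chemokine of lung epithelium, stood at 5962 CPM in mutant and 507 CPM in control cells (3.53) and was found after thinning in 99.3% of mutant and 43.1% of control AT2 cells, beside 3.29% of mutant and 0.326% of control endothelial cells. Retnla, a secreted resistin-like protein, stood at 2763 CPM in mutant and 68.7 CPM in control cells (5.14). S100g, a calcium-binding protein, stood at 886 CPM in mutant and 6.34 CPM in control cells (5.78). Hc, complement component 5, stood at 737 CPM in mutant and 3.88 CPM in control cells (5.75).

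Chil1, a chitinase-like secreted protein, stood at 757 CPM in mutant and 0.522 CPM in control cells, where it had 7 UMIs (0.210 to 1.08 CPM). After thinning Chil1 was found in 65.7% of mutant and 0% of control AT2 cells, beside 0.678% of mutant and 0% of control endothelial cells. Lcn2, an iron-trapping defence protein, stood at 228 CPM in mutant and 1.86 CPM in control cells (4.32), and Il33, an epithelial alarm cytokine, at 120 CPM in mutant and 16.0 CPM in control cells (2.32). Chil1 and Lcn2 were thus near 0 in control AT2 cells. Cd74, the invariant chain of antigen presentation, did not share the pattern, with 50.3 CPM in mutant and 51.8 CPM in control cells.

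Of 14 measured AT2 identity genes 11 were called higher and none lower, beside 13.2% and 17.2% of all genes. Their median was 3.15 and their relative median 3.44. The list shares Lyz2, Chil1, Hc, Cxcl15 and Il33 with the defence list and Lamp3 and Slc34a2 with the lamellar body list. Of the other members called higher, Scd1 and Fabp5 are also in the list of fatty acid and phospholipid synthesis. Cebpa is also among the epithelial transcription factors, and Fgfr2 among the distal tip genes and the FGF and Wnt genes. All 11 calls are thus counted in another list too, and that of Fgfr2 did not hold on the relative scale (-0.34). Etv5, a transcription factor downstream of FGF signalling, differed little, at 313 CPM in mutant and 332 CPM in control cells. Egfl6 was at 438 CPM in mutant and 531 CPM in control cells, also inside the 2-fold limit.

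Genes of fatty acid and phospholipid synthesis, which supply surfactant lipid, were mostly higher in mutant AT2 cells. Of 19 measured members 16 were called higher and none lower, beside 13.2% and 17.2% of all genes. Their median was 1.39 and their relative median 1.70. Scd1, which puts a double bond into saturated fatty acids, stood at 1922 CPM (1895 to 1948) in mutant and 9.99 CPM (8.37 to 11.8) in control cells, a log2 difference of 6.59. Scd2, its neighbour on chromosome 19, was at 1364 CPM in mutant and 248 CPM in control cells (2.41). After thinning Scd1 was found in 84.3% of mutant and 1.78% of control AT2 cells, beside 1.30% of mutant and 0.326% of control endothelial cells.

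Other members of the list were also called higher, not all of them steps of synthesis. Fasn, the fatty acid synthase, stood at 390 CPM in mutant and 114 CPM in control cells (1.69). Gpam, which begins glycerolipid synthesis, was at 321 CPM in mutant and 20.2 CPM in control cells (3.46). Fabp5, a fatty acid carrier, was at 4542 CPM in mutant and 525 CPM in control cells (3.09). Acoxl, a relative of the peroxisomal acyl-CoA oxidases, was at 200 CPM in mutant and 0.597 CPM in control cells (4.31). Cdipt, the phosphatidylinositol synthase, was the member furthest the other way, at 17.8 CPM in mutant and 44.1 CPM in control cells (-0.96).

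Cholesterol synthesis genes differed less. Of 16 measured members 7 were called higher and none lower, beside 13.2% and 17.2% of all genes. Their median was 0.93, and all 16 differences were positive. Relative to like genes, 10 were called higher, beside 11.4% of all genes, with a median of 1.30. Hmgcs1 stood at 188 CPM in mutant and 36.7 CPM in control cells (2.08), and Insig1, the sterol sensor partner, at 179 CPM in mutant and 33.8 CPM in control cells (2.11).

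**Figure D4:**
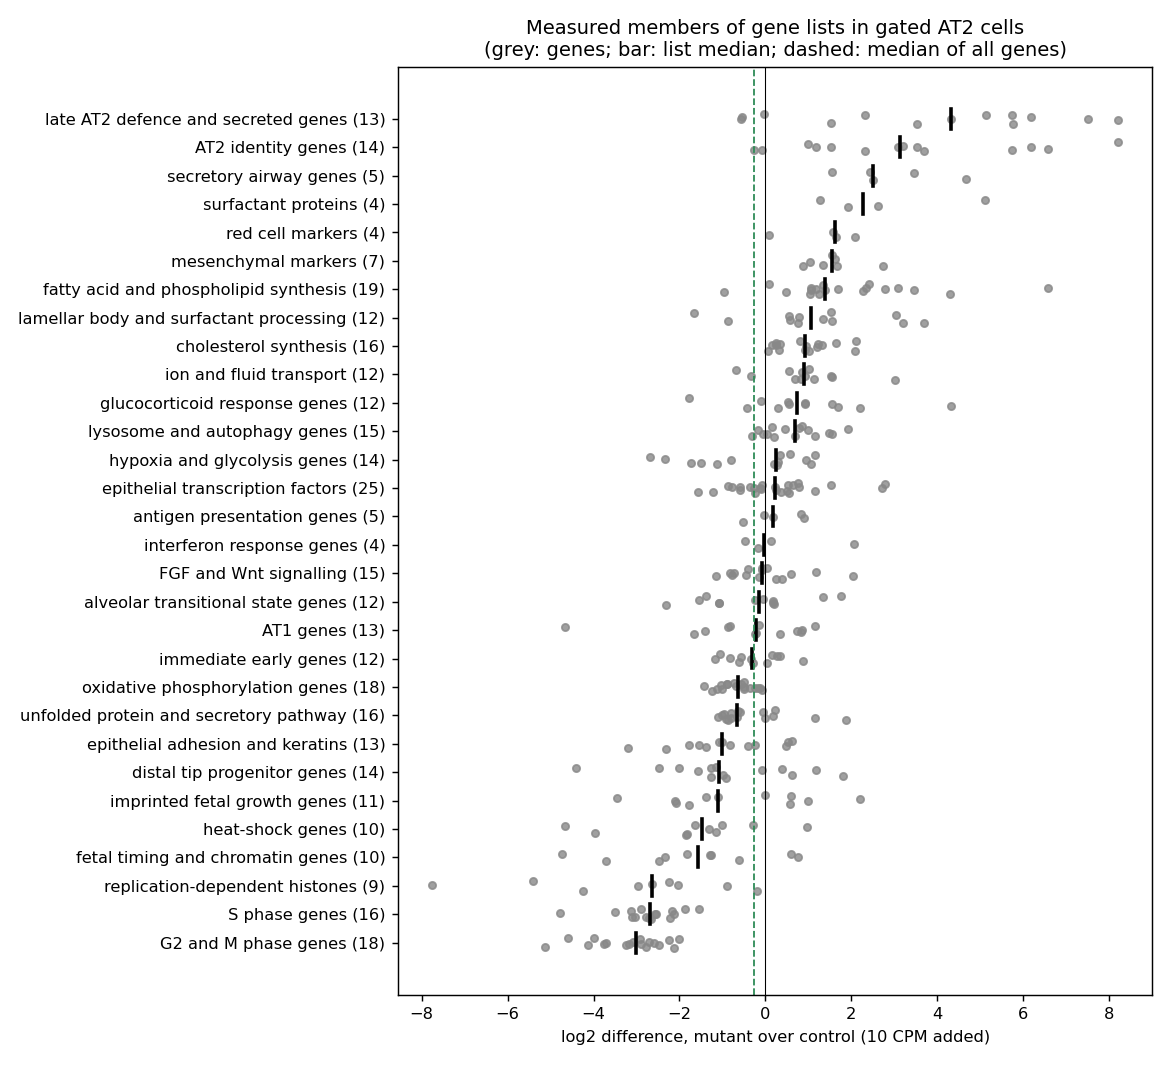
Log2 difference of mutant over control (10 CPM added) in gated AT2 cells for every measured member (grey points) of 30 gene lists, ordered by list median (black bar), with the number of measured members in brackets. The dashed line is the median of all genes, -0.25. Defence, identity and surfactant lists lie to the right and cell cycle lists to the left.

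Cell division RNA was close to absent in mutant AT2 cells. All 18 measured genes for G2 and mitosis and all 16 for the S phase were called lower, with medians of -3.003 and -2.69 and relative medians of -2.49 and -2.14, and on the relative scale 18 and 15 of them were called lower. Mki67, a marker of cycling cells, stood at 10.3 CPM (8.50 to 12.5) in mutant and 255 CPM (246 to 264) in control cells (-3.70). Top2a, which untangles DNA before mitosis, was at 9.68 CPM in mutant and 305 CPM in control cells (-3.999). Ube2c, which marks mitotic cyclins for destruction, was at 9.02 CPM in mutant and 657 CPM in control cells (-5.13). Mcm3, part of the replicative helicase, was at 2.85 CPM in mutant and 99.8 CPM in control cells (-3.09).

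The genes furthest below the control were Hist1h2ap, H2ac8, Ube2c, Pclaf, Mdk, Igfbp2, Hspa1a, Birc5, Clu and Tubb5, and the ranking of genes with at most 10 kb of intron added H1f5. Hist1h2ap, a replication-dependent histone H2A gene, had 22 UMIs or 2.09 CPM in mutant cells and 34928 UMIs or 2604 CPM in control cells (-7.76). H2ac8 was at 5.60 CPM in mutant and 653 CPM in control cells, and the linker histone gene H1f5 at 34.5 CPM in mutant and 832 CPM in control cells. Histone genes of this class have many near-identical copies, so the split of reads between copies is uncertain. Of 10 such genes matched, 9 were measured and 7 called lower. Pclaf, a partner of the replication clamp, and Birc5, a survivin needed in mitosis, stood at 3.51 and 3.13 CPM in mutant cells and at 359 and 306 CPM in control cells.

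Counted per cell, 7 of 536 mutant AT2 cells (1.31%, 0.527 to 2.67) had 2 or more G2 and M UMIs among 2000 thinned UMIs, against 192 of 281 control cells (68.3%, 62.5 to 73.7). For the S phase list the shares were 4.48% in mutant and 72.6% in control AT2 cells. Most control AT2 cells thus passed this limit and most mutant ones did not. AT1-gated cells, those past the Ager limit and under the Sftpc limit, gave 1.18% in the mutant and 35.9% in the control library for the G2 and M list. Endothelial cells gave 22.6% in the mutant and 57.3% in the control library. The G2 and M list was lower in the mutant library in all 3 groups of cells, and no difference between groups was tested.

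The counts were also looked at by depth. Control AT2 cells over 40000 UMIs had a median of 2813 CPM for the summed G2 and M list, those of 10000 to 40000 UMIs had 1242, and those of 2000 to 10000 had 1657. The 487 mutant cells of 10000 to 40000 UMIs had a median of 32.8. Within the class of 10000 to 40000 UMIs the list thus stood lower in the mutant library. The part of depth in the difference between libraries was not tested. The replication histones had a median of 4846 CPM in control cells over 40000 UMIs, and 876 in control cells of 10000 to 40000 UMIs.

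**Figure D5:**
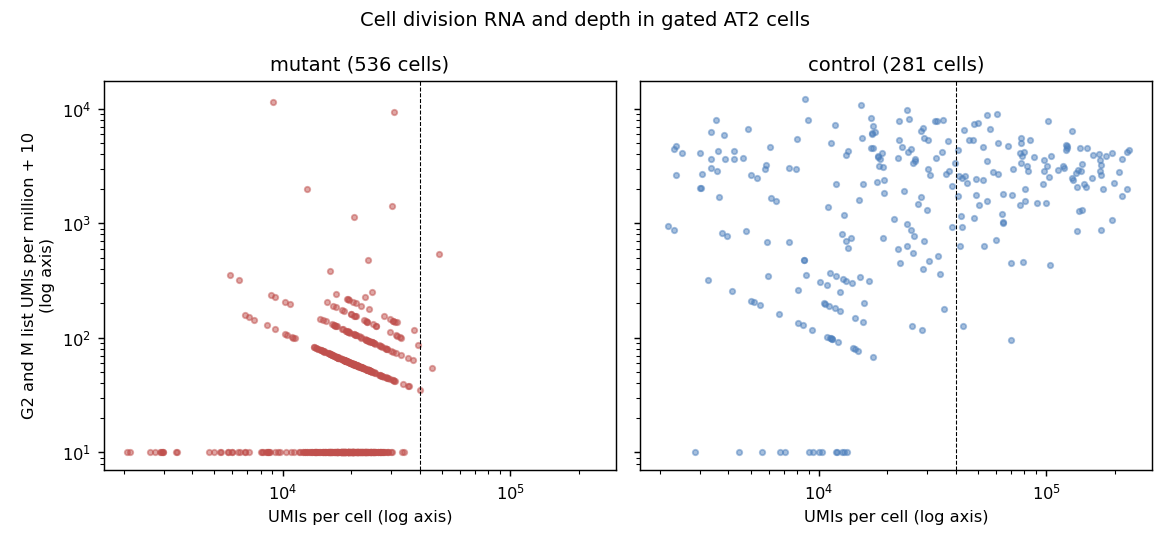
Summed level of the G2 and M phase list (y axis, CPM plus 10, log axis) against UMIs per cell (x axis, log axis) in 536 mutant AT2 cells (left) and 281 control AT2 cells (right). The dashed line marks 40000 UMIs, past which lie 3 mutant and 105 control cells, and points on slanted lines are cells with 1, 2 or 3 UMIs of the list.

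Surfactant genes were compared again in cells with little division RNA. These were the 492 mutant and 55 control AT2 cells with no G2 and M UMI among 2000 thinned UMIs, a choice made after the values were seen. In them the median of the 4 surfactant proteins, which include the gate gene Sftpc, was 1.97, against 2.28 over all gated cells. The median of AT2 identity genes was 3.002, against 3.15. The median of S phase genes was -2.55 in these cells, and the median of G2 and M phase genes was -1.65, so the control cells still held more division RNA.

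Progenitor genes of the distal lung tip went both ways, with more called lower on the plain scale. Of 14 measured members 7 were called lower and 2 higher, beside 17.2% and 13.2% of all genes. The median was -1.07 and the relative median -0.44, against -0.25 and 0 over all genes. On the relative scale 4 were called lower and 3 higher, beside 9.31% and 11.4% of all genes. Those called higher there were Cpm, Spry2 (1.08) and Ets2 (1.05). Sox9, a transcription factor of the tip, stood at 57.6 CPM in mutant and 190 CPM in control cells (-1.57, relative -0.91). Sox11 was at 10.7 CPM in mutant and 106 CPM in control cells (-2.48), and Bmp4, a tip ligand, at 40.4 CPM in mutant and 192 CPM in control cells (-1.998). Clu, a secreted chaperone, was at 20.03 CPM in mutant and 626 CPM in control cells (-4.41).

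The tip genes called higher on the plain scale were Fgfr2, the FGF receptor of the epithelium, and Cpm, a surface carboxypeptidase. Fgfr2 stood at 629 CPM in mutant and 272 CPM in control cells, and its relative difference was -0.34, so its call did not hold beside genes of like intron length. Cpm stood at 263 CPM in mutant and 67.8 CPM in control cells (1.81, relative 1.71). Of 15 measured genes of FGF and Wnt signalling 2 were called higher and 1 lower, beside 13.2% and 17.2% of all genes. On the relative scale 2 were called higher and none lower, beside 11.4% and 9.31%. No direction is given for this list. Nkd1, a Wnt feedback inhibitor, stood at 156 CPM in mutant and 30.1 CPM in control cells (2.05), and Etv4 at 0.475 CPM in mutant and 13.3 CPM in control cells (-1.16).

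Genes of fetal timing and of fetal growth were called lower more often than higher. Of 10 measured genes of fetal timing and chromatin 7 were called lower and none higher on either scale. Over all genes, the plain shares were 17.2% lower and 13.2% higher, and the relative shares 9.31% and 11.4%. The list median was -1.56 and the relative median -1.71. Mdk, a heparin-binding growth factor of the embryo, stood at 22.0 CPM (19.3 to 25.1) in mutant and 842 CPM (826 to 857) in control cells (-4.73). Hmgn2, a nucleosome-binding protein, was at 56.4 CPM in mutant and 858 CPM in control cells (-3.71). After thinning Mdk was found in 3.73% of mutant and 75.8% of control AT2 cells, beside 3.76% of mutant and 19.001% of control endothelial cells. The mutant AT2 share of Mdk thus lay at the endothelial share of that library.

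Of 11 measured imprinted genes of fetal growth 6 were called lower and 1 higher, beside 17.2% and 13.2% of all genes. The list median was -1.10. Relative to like genes, 5 were called lower and 3 higher, beside 9.31% and 11.4%, with a median of -0.52. H19 stood at 29.1 CPM in mutant and 419 CPM in control cells (-3.45), and Cdkn1c, a cyclin kinase inhibitor, at 170 CPM in mutant and 602 CPM in control cells (-1.77). Meg3, a long noncoding RNA, stood the other way, at 3826 CPM in mutant and 815 CPM in control cells (2.22). Dlk1, which lies in the same imprinted domain as Meg3, was at 5007 CPM in mutant and 3362 CPM in control cells (0.57, relative 1.24), and Peg10 at 13.3 CPM in mutant and 1.71 CPM in control cells (0.99, relative 1.67). Igfbp2, placed with the AT1 genes, stood at 3.42 CPM in mutant and 332 CPM in control cells (-4.67).

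Transcription factors of the epithelium went both ways. Of 25 measured members 4 were called higher and 2 lower, beside 13.2% and 17.2% of all genes, with a median of 0.23. On the relative scale 5 were called higher and 1 lower, with a median of 0.05. Mouse Nkx2-1, for which the labels give no change in the mouse cells, stood at 328 CPM (318 to 340) in mutant and 501 CPM (489 to 513) in control cells, a log2 difference of -0.59 and a relative difference of 0.05. It was found in 97.4% of mutant and 94.0% of control cells before thinning, and in 48.7% of mutant and 61.2% of control cells after it, beside 0.417% of mutant and 1.74% of control endothelial cells after thinning. Foxa2 was at 32.8 CPM in mutant and 89.8 CPM in control cells (-1.22), with a relative difference of -0.58.

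Called higher were Cebpa, Cebpd, Tfcp2l1 and Foxp1. Cebpa, a factor of AT2 maturation, stood at 243 CPM in mutant and 77.8 CPM in control cells (1.53). Cebpd, a glucocorticoid-induced factor, stood at 221 CPM in mutant and 23.3 CPM in control cells (2.79). In endothelial cells Cebpd was found after thinning in 49.1% of mutant and 51.3% of control cells, and in AT2 cells in 27.2% of mutant and 4.98% of control cells. Tfcp2l1 was at 101 CPM in mutant and 7.01 CPM in control cells (2.71). Foxp1 was at 606 CPM in mutant and 265 CPM in control cells, with a relative difference of -0.36, so its call rested on the plain scale.

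Of 12 measured glucocorticoid response genes 4 were called higher and 1 lower, beside 13.2% and 17.2% of all genes, with a median of 0.74. On the relative scale 5 were called higher and 2 lower, beside 11.4% and 9.31%. Errfi1, an inhibitor of EGF receptor signalling, stood at 604 CPM in mutant and 124 CPM in control cells (2.20), and the metallothionein gene Mt1 at 1200 CPM in mutant and 400.4 CPM in control cells (1.56). Fkbp5 was at 11.0 CPM in mutant and 18.1 CPM in control cells, inside the 2-fold limit.

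AT1 genes were looked at because the 2 alveolar types share a progenitor. Of 13 measured members 1 was called higher and 3 lower, beside 13.2% and 17.2% of all genes, with a median of -0.22. On the relative scale 2 were called higher and 2 lower, beside 11.4% and 9.31%, with a median of 0.07. Ager, held under 1000 CPM by the rule, was at 330 CPM in mutant and 386 CPM in control cells. Hopx stood at 76.1 CPM in mutant and 148 CPM in control AT2 cells (-0.88), while in AT1-gated cells it stood at 2103 CPM in the mutant and 825 CPM in the control library. Emp2, the member called higher, was at 272 CPM in mutant and 118 CPM in control AT2 cells (1.15). Rtkn2, a marker of AT1 cells, was at 8.83 CPM in mutant and 9.54 CPM in control AT2 cells, and at 1079 CPM in mutant and 13.8 CPM in control AT1-gated cells.

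The AT1-gated cells, 1104 in the mutant and 248 in the control library, served to see which differences were shared. In them 14 of 16 measured AT1 genes were called higher and the surfactant list had a median of -1.95. Their Sftpc stood at 1806 CPM in mutant and 9942 CPM in control cells, so the control cells of this gate held more Sftpc RNA. Cells past both limits numbered 157 in the mutant and 22 in the control library, with Sftpb at 3654 CPM in mutant and 1167 CPM in control cells. These gates use Sftpc and Ager, so the values are descriptions.

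Of 13 measured epithelial adhesion and keratin genes 7 were called lower and none higher, beside 17.2% and 13.2% of all genes. The list median was -1.01. Relative to like genes, 3 were called lower and none higher, beside 9.31% and 11.4%, with a median of -0.48. Epcam, an epithelial adhesion molecule, stood at 295 CPM (285 to 306) in mutant and 1028 CPM (1010.5 to 1045) in control cells (-1.77). Its cell quartiles were 186 and 374 CPM in mutant cells and 773 and 1280 in control cells. Cdh1, E-cadherin, was at 206 CPM in mutant and 144 CPM in control cells (0.48). Krt7 was at 54.8 CPM in mutant and 311 CPM in control cells (-2.31), and the fetal claudin gene Cldn6 at 9.40 CPM in mutant and 167 CPM in control cells (-3.19).

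Genes of the alveolar transitional state mark cells between the AT2 and AT1 forms. Of 12 measured members 5 were called lower and 2 higher, beside 17.2% and 13.2% of all genes, with a median of -0.15. On the relative scale 1 was called lower and 2 higher, beside 9.31% and 11.4%. The relative median was 0.48, so no direction is given for these genes. Krt8, the best known of them, was at 193 CPM in mutant and 418 CPM in control cells (-1.08, relative -0.39). Cdkn1a, a cell cycle inhibitor, was at 86.6 CPM in mutant and 27.9 CPM in control cells (1.35), and Ndrg1 at 81.1 CPM in mutant and 16.6 CPM in control cells (1.77).

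Lysosome and fluid transport genes are both part of AT2 function. Of 15 measured lysosome and autophagy genes 4 were called higher and none lower, beside 13.2% and 17.2% of all genes, with a median of 0.70. On the relative scale 8 were called higher, beside 11.4% of all genes. Lamp2, a lysosomal membrane protein, stood at 339 CPM in mutant and 82.2 CPM in control cells (1.92), and Npc2, which carries cholesterol in the lysosome, at 4570 CPM in mutant and 2042 CPM in control cells (1.16). Of 12 measured transport genes 5 were called higher and none lower, beside 13.2% and 17.2% of all genes, with a median of 0.90. On the relative scale 6 were called higher and 1 lower, beside 11.4% and 9.31%. Cftr, the chloride channel, stood at 279 CPM in mutant and 25.9 CPM in control cells (3.01). Scnn1a, a subunit of the sodium channel that clears lung fluid at birth, was at 29.1 CPM in mutant and 3.28 CPM in control cells (1.56).

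Of 10 measured heat-shock genes 8 were called lower and none higher in mutant cells, beside 17.2% and 13.2% of all genes. The list median was -1.48. Relative to like genes, 4 were called lower and 1 higher, beside 9.31% and 11.4%, with a median of -0.82. Hspa1a, an inducible chaperone, stood at 9.97 CPM in mutant and 493 CPM in control cells (-4.65), and Hspa1b, its near-identical neighbour, at 3.99 CPM in mutant and 208 CPM in control cells (-3.96). After thinning Hspa1a was found in 1.68% of mutant and 38.4% of control AT2 cells, and in 7.62% of mutant and 78.5% of control endothelial cells. The difference was therefore not confined to AT2 cells. Hspa5, the chaperone of the endoplasmic reticulum, was at 485 CPM in mutant and 426 CPM in control cells.

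In the list of unfolded protein and secretory pathway genes 2 of 16 measured members were called higher and 2 lower, with a median of -0.65. The relative values gave 2 called higher and none lower, with a median of -0.05. Over all genes, the plain shares were 13.2% higher and 17.2% lower, and the relative shares 11.4% and 9.31%. Of 18 measured genes of oxidative phosphorylation 5 were called lower, and the median of -0.63 became 0.05 on the relative scale, so no direction is given for that list. Of 14 measured hypoxia and glycolysis genes 5 were called lower and 2 higher, and on the relative scale 3 lower and 4 higher, so none is given there either. Gapdh stood at 679 CPM in mutant and 2260 CPM in control cells (-1.72), Pkm at 112 CPM in mutant and 605 CPM in control cells (-2.33), and Hk2 at 139 CPM in mutant and 56.1 CPM in control cells (1.17). None of 5 measured antigen presentation genes was called on the plain scale. Relative to like genes, 2 were called higher, H2-K1 (1.56) and H2-D1 (1.47), with a median of 0.82. Of 12 immediate early genes 2 were called lower, beside 17.2% of all genes. They were Jun, at 1433 CPM in mutant and 2982 CPM in control cells, and Ier2, at 305 CPM in mutant and 696 CPM in control cells. Neither call held on the relative scale (Jun -0.41, Ier2 -0.53). There only Zfp36 was called higher (1.51), beside 11.4% of all genes, so no direction is given for the list.

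Cmss1 and Pde4d stood among the 10 highest genes but have long introns, 302868 and 1491508 bases. Cmss1 was at 2297 CPM in mutant and 39.9 CPM in control AT2 cells (5.53), and after thinning it was found in 97.8% of mutant and 7.12% of control AT2 cells and in 99.5% of mutant and 6.19% of control endothelial cells. Pde4d, a phosphodiesterase, was at 831 CPM in mutant and 10.1 CPM in control cells (5.39), and was found in 67.3% of mutant and 7.27% of control endothelial cells. Both genes thus also differed between the libraries in endothelial cells. Nupr1, a stress-induced nuclear protein with 5099 bases of intron, was at 403 CPM in mutant and 1.49 CPM in control AT2 cells (5.17).

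Markers of other cell types were summed over the gated cells of each library. Summed endothelial markers, 2 of which the rule held down, stood at 45.9 CPM in mutant and 72.8 CPM in control AT2 cells, against 8351 and 7297 CPM in mutant and control endothelial cells. Immune markers stood at 15.1 CPM in mutant and 4.10 CPM in control cells, with none of 8 reaching 10 CPM. None of 8 ciliated or 6 neuroendocrine genes was measured. Of 7 measured mesenchymal markers 6 were called higher, and their sum was 754 CPM in mutant and 172 CPM in control cells. Without the 36 mutant and 2 control cells with a doublet score of 0.2 or more, the sum was 176 CPM in mutant and 154 CPM in control cells, and the median log2 difference was -0.17, against 1.55 with them.

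Red cell markers summed to 1780 CPM in mutant and 622 CPM in control AT2 cells, while the cell medians were 54.0 CPM in mutant and 133 CPM in control cells. Of the Hba-a1 UMIs, 96.1% in mutant and 80.4% in control cells came from 5 cells. The red cell sums were 812 CPM in mutant and 625 CPM in control cells without the same doublets. All ungated mouse cells had 3433 CPM in the mutant and 3310 CPM in the control library. All 5 measured secretory airway genes were called higher, with a median of 2.52. Their sum was 690 CPM in mutant and 17.5 CPM in control AT2 cells, and 997 CPM in mutant and 695 CPM in control ungated mouse cells. Scgb1a1, the club cell secretoglobin, had 1154 UMIs in mutant cells, of which 917 came from 1 cell, and 11 UMIs in control cells. Scgb3a2, another secretoglobin, had 740 UMIs in mutant cells, of which 565 came from 1 cell, and 54 UMIs in control cells. The list median is the value of Scgb3a2 and thus rests largely on 1 cell. Cbr2, a carbonyl reductase, was spread over 394 mutant cells and stood at 432 CPM in mutant and 7.23 CPM in control cells (4.68). EGFP, a reporter sequence in the gene set whose source the labels do not give, stood at 2668 CPM in mutant and 6873 CPM in control cells, and was found after thinning in 87.7% of mutant and 98.2% of control AT2 cells and in 93.2% of mutant and 99.8% of control endothelial cells.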

How the data were processed

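Per the labels, lung cells of a mutant and a control library were prepared with the 10x 3' v3 chemistry. The deposited matrices hold the authors' counts, whole-number UMI counts per feature and barcode with no scaling. Per the file headers they came from Cell Ranger 7.0.1 (mutant) and 6.0.1 (control). Builds mm10 and rn6 and Seurat 4.3 are named per the submitters' processing notes. Gene positions, intron lengths and the lysozyme sequences were read from GENCODE vM21 by gene identifier.

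The barcode, species and gate limits are given with the results. Where features shared a symbol, the most abundant was taken. UMIs of the gated cells were summed per library, 10534159 mouse UMIs in the mutant and 13412397 in the control library, and given as CPM with exact Poisson 95% intervals. Differences were log2 of mutant over control after adding 10 CPM, and again after subtracting the median of each of 40 bins of intron length. Shares were taken before and after thinning each cell to 2000 UMIs with seed 1. The endothelial cells used as background had at least 3 UMIs of Cdh5 and Pecam1 and no Epcam UMI, with median depths of 8256.5 UMIs (mutant) and 7705 UMIs (control). Scrublet in Scanpy 1.11.5 scored doublets, and gated cells with high scores were kept, with results without them as an alternative. Its automatic threshold called 359 mutant barcodes and 1 control barcode. Scripts used Python 3.11.15, numpy 2.4.6 and scipy 1.17.1, and TMM factors came from edgeR 4.0.16. The steps were tested on simulated data.

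The members, lists and limits were chosen with earlier results of these data known. Named genes were the 10 highest and 10 lowest by log2 difference among genes that reached 100 CPM in a library and had 20 or more UMIs where higher, over all genes and over those with at most 10 kb of intron. Mitochondrial, ribosomal protein, haemoglobin, Y-linked and X-inactivation genes and unnamed models were left out. List members were named by level and by size of difference, at most 8 a list. Promoter motifs were planned but not analysed here. With 1 library per group no test, p-value or standard error was computed. The values of some single genes are not reported here.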

Additional observations from a re-analysis of the deposited data

Results flagged for a closer look

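The same genes were compared between libraries in AT1-gated cells. For 7 listed or named genes the log2 difference was past 2-fold in opposite directions in AT2 and AT1-gated cells. The difference between the cell types was not tested, since each library gave 1 value. Cxcl15 had 3.531 in AT2 and -1.11 in AT1-gated cells, and Retnla 5.138 and -1.28. Fabp5 had 3.089 in AT2 and -2.91 in AT1-gated cells, and Fasn 1.694 and -1.32. Sftpa1 had 2.636 in AT2 and -1.48 in AT1-gated cells, Sftpb 1.917 and -2.43, and Npc2 1.158 and -1.07. On the relative scale Fabp5 (-2.31) and Sftpb (-1.85) stayed past 2-fold in AT1-gated cells, and the other 5 did not, at -0.62 for Cxcl15, -0.71 for Retnla, -0.74 for Fasn, -0.89 for Sftpa1 and -0.62 for Npc2. AT1-gated cells held 1806 CPM of Sftpc in the mutant and 9942 CPM in the control library, and the gate itself uses Sftpc. The part of that difference in these values was not tested.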

How the results depend on the processing

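The counts of genes past 2-fold, 1234 higher and 1612 lower in mutant AT2 cells, stayed within 1.5 times under most settings. With 1 CPM added in place of 10, 2553 genes were lower. With 50 CPM added, 416 were higher and 507 lower. Among genes with at most 10 kb of intron 162 were higher and 897 lower, a set of 3047 genes. Relative to genes of like intron length 872 were lower. The median of the mesenchymal markers was the list median that reversed, at -0.17 with doublet-scored cells left out. Without doublet-scored cells, with other Sftpc, Ager, species or UMI limits, or with cells over 40000 UMIs left out, gene counts ranged within that factor. Among list medians recomputed, 379 stayed within the counting interval of the value given and 188 left it without changing the sign of a called value. Among named genes 264 values stayed within it, 188 left it and none reversed. The medians of some uncalled lists took either sign, such as those of epithelial transcription factors (-0.25 to 0.37) and AT1 genes (-0.63 to 0.91). No paired analysis was possible because each group had 1 library and the groups shared only 1 replicate number. Limits on cells with at most 40000 UMIs and on cells without division UMIs were chosen after seeing the data. The planned search of promoters was not run. Genes under 10 CPM in both libraries are limited by depth, where 3 UMIs are worth 0.285 CPM in mutant and 0.224 CPM in control cells.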
